A study of Mus musculus with 2 samples.

Results

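RNA-seq libraries of primary mouse hepatocytes were examined for 9 genes of retinoid handling and of quiescent hepatic stellate cells (HSCs), namely Lrat, Rbp4, Reln, Ngfr, Hgf, Ecm1, Rgs5, Colec11 and Hand2. The genes were taken by name, through the RefSeq symbol of each transcript, from the 20317 genes with a symbol in the mRNA table. All 9 had a transcript, and all 9 were among the 12012 genes with a listed level in at least 1 library. The mice were male, wild type (WT) and of the C57BL/6J strain, and were 5 weeks old when obtained. The control condition was oil alone, given into the peritoneum, and the other was CCl4 as a 20% solution in mineral oil, at 2.5 ml of CCl4 per kilogram, with 1 library each (the oil and the CCl4 library). CCl4 injures hepatocytes when they metabolize it, and repeated injection leads to fibrosis. The labels give 8 weeks of injection and the methods give 4 weeks, and how many mice were pooled for a library is not given in the sources used here. The hepatocytes had been freed by pronase and collagenase perfusion and enriched on a density gradient, so that other liver cells could remain in either preparation. The study checked the purity of isolated hepatocytes by qRT-PCR of hepatocyte, HSC and Kupffer cell genes. Whether these 2 preparations were among those checked is not given in the sources used here. There was no replicate of either condition, so no difference below has a replicate check, no test was made, and the values describe these 2 libraries. Gene positions are those of GRCm38.p6 and span all RefSeq transcripts of a gene, predicted ones included, not only the transcript named beside them.

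The liver holds most of the body's vitamin A. Hepatocytes take up dietary retinoid and secrete retinol into the blood bound to Rbp4, the plasma retinol carrier, which travels together with transthyretin (Ttr). HSCs store retinol as retinyl esters in lipid droplets, and Lrat, lecithin retinol acyltransferase, makes those esters. Upon injury the quiescent HSC turns into a myofibroblast and loses its retinoid droplets. The other genes are used as markers of the quiescent HSC, or of its secreted factors and regulators, although several are also made elsewhere.

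Levels are in RPKM (reads scaled to the length of the transcript and to the depth of the library), so that levels of different genes can be set side by side. No mRNA level between 0 and 1 RPKM occurs in the deposited table, and new lncRNAs under 1 RPKM were all listed at 0, so a listed 0 was read as a level below 1 RPKM. None of 11 Polr2, 12 Snrp and 36 Nduf genes, which every cell uses, was listed at 0. However, 6 genes above 100 RPKM with oil, among them several Mup genes, which are close copies of each other, were listed at 0 with CCl4, and whether each of these 0 values is a low level was not tested. Steps between the values of short genes gave totals of 57992569 reads (oil) and 64655548 reads (CCl4). The change of a gene is given as log2 of its RPKM with CCl4 divided by that with oil, with nothing added, and a level listed at 0 was set to 1.00035 RPKM, the smallest level in the table, which makes the change a lower bound. A gene was called higher or lower at an absolute log2 change of at least 1, on size alone. By this rule 16.5% of the 12012 genes were higher and 5.39% were lower in the CCl4 library. For genes listed in both libraries the median log2 change was 0.30, and no change given here has been corrected for it. The sample titles name primary hepatocytes for both libraries. All 15 hepatocyte markers examined were listed in both, with Alb, albumin, at 8656 RPKM with oil and 6476 RPKM with CCl4. All 11 sinusoidal endothelium markers and all 9 Kupffer cell markers compared were listed in both as well, so a listed level does not tell these cells apart.

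The stretches upstream of the transcription starts are shown for Rbp4, which fell, and for Hand2, Lrat, Reln and Colec11, which had the largest changes with a listed 0 set to the smallest level (the change of Ngfr is a lower bound and may be larger), since Rbp4 and these genes moved apart between the libraries. Each is the 250 bases before a RefSeq start of GRCm38.p6 (the submitters' processing notes name mm10), read 5′ to 3′ on the strand of the gene. The starts used for Colec11 and Ecm1, the inner start of Rbp4 and a second start of Hgf lie inside the gene span, so that those windows overlap it. Capitals mark TATAA on that strand, the core of the TATA box, and GGGCGG or its reverse complement CCGCCC, the GC box.
Rbp4, outer start, chr19:38125322-38125571, minus strand: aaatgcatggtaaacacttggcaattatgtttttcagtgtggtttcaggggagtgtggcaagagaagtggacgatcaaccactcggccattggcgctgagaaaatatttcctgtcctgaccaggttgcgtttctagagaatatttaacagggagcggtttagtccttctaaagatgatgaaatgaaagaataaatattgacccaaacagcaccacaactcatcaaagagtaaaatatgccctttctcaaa
Rbp4, inner start, chr19:38124812-38125061, minus strand: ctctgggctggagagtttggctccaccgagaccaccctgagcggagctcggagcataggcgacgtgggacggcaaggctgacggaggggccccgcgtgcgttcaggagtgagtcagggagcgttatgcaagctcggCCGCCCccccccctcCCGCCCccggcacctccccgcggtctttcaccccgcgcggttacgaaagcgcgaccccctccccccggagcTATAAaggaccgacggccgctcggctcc
Lrat, chr3:82903975-82904224, minus strand: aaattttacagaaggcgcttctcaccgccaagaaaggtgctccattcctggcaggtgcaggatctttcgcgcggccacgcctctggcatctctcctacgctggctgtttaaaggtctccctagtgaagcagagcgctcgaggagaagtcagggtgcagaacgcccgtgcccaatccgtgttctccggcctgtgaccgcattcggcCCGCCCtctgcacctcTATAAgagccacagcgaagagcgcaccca
Reln, chr5:22344706-22344955, minus strand: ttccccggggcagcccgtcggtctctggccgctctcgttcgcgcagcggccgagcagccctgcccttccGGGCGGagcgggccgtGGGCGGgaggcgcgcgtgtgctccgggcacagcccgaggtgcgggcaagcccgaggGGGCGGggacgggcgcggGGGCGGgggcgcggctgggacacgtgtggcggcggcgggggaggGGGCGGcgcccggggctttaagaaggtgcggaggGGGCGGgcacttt
Colec11, chr12:28623331-28623580, minus strand: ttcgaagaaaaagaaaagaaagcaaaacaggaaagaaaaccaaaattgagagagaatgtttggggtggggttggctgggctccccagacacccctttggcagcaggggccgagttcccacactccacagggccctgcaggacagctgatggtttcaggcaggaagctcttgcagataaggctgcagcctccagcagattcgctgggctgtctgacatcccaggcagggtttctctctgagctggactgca
Hand2, chr8:57320733-57320982, plus strand: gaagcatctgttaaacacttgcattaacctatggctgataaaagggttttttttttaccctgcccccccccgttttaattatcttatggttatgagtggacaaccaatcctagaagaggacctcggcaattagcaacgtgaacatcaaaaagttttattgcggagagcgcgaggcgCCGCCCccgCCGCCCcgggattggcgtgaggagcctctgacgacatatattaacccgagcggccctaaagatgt

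Promoter makeup differed among genes that rose alike. The Reln window had 80.0% G and C with 37 CpG dinucleotides and 6 GC boxes, whereas the Colec11 window had 54.4% G and C, 3 CpG and neither motif. The median over 32851 windows of the same length was 52.4% G and C with 6 CpG. TATAA began 29 bases before the Lrat start and 28 bases before the inner Rbp4 start, and was also found before Ecm1, which makes 3 of the 11 windows of the 9 genes, against 16% of all windows. A GC box on either strand was in 6 of the 11 windows, against 32.7% of all windows. The remaining motifs were searched on both strands. AGGTCA, a recognition element that retinoic acid receptors share with other nuclear receptors, was in 0 of the 11 windows and in 14.0% of all windows. CATCTG, an E-box of the basic helix-loop-helix factors to which Hand2 belongs, was in the windows of Ecm1 and Hand2, against 14.4% of all windows. A match is a run of letters and not a shown site, and a missing match says only that the letters are not in this window.

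The 8 genes other than Rbp4 were all called higher in the CCl4 library, and Rbp4 was called lower. The median change of the 8 genes was at least 3.16 on the log2 scale, with Ngfr and Hand2 at their lower bounds, against 0.33 over all genes compared, and their changes ran from 1.66 for Hgf to a lower bound of 3.89 for Hand2. With the share of all genes called higher at 16.5%, 8 of 9 here were higher, and 1 of 9 was lower against 5.39%. The summed level of the 8 genes went from 37.6 RPKM in the oil library, with Ngfr and Hand2 counted as 0, to 270.5 RPKM with CCl4, whereas with Rbp4 the sum of all 9 was 488 and 486 RPKM. In bulk RNA a change in the number of cells of a type and a change in RNA per cell cannot be told apart.

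**Figure D1:**
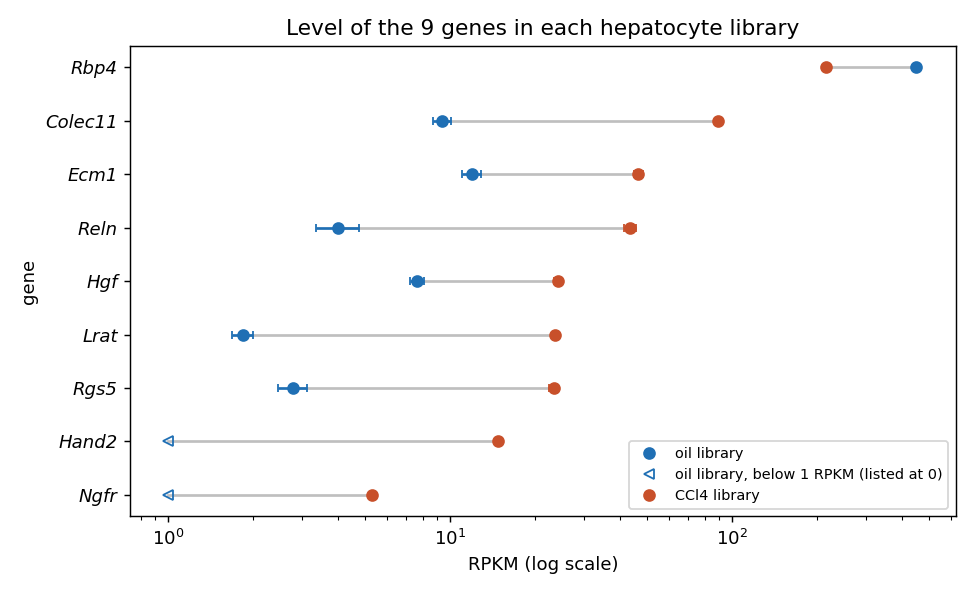
Level of each gene in RPKM (log axis) in the oil library (blue) and the CCl4 library (orange), with bars for 95% exact Poisson intervals of the reads at their widest, which cover counting error only. Open triangles mark levels listed at 0, plotted at the limit of 1 RPKM, and Ngfr and Hand2 carry no interval; Rbp4 alone lies higher in the oil library, at 450.4 against 215.8 RPKM.

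For Rbp4, NM_011255, on chromosome 19 from 38116620 to 38125321, the level was 450.4 RPKM with oil and 215.8 RPKM with CCl4. It was therefore 2.09-fold lower in the CCl4 library, a log2 change of -1.06. Counting error alone places that change between -1.10 and -1.03 (95% exact Clopper-Pearson interval on at least 17944 and at least 9584 reads). The second Rbp4 transcript, NM_001159487, was at 343.2 and 164.2 RPKM, with a log2 change of -1.06, and the reads of these transcripts overlap. Rbp4 was the 96th most abundant gene of the oil library and the 197th of the CCl4 library. Its change lay inside the range of the 15 hepatocyte markers, which ran from -2.33 for Cyp2e1 to -0.42 for Alb with a median of -1.19. Of these markers 8 were called lower (53.3%, against 5.39% of all genes, and 14 with both libraries scaled to their median ratio). Ttr, the partner of Rbp4 in plasma, was at 2047 RPKM with oil and 1249.7 RPKM with CCl4, a log2 change of -0.71 that did not reach the size for a call but did so, at -1.01, when the libraries were scaled to their median ratio.

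Lrat, NM_023624, on chromosome 3 from 82892582 to 82903974, was at 1.84 RPKM with oil and 23.6 RPKM with CCl4. It was 12.8-fold higher, with a log2 change of 3.68 and an interval of 3.56 to 3.80 from at least 571 and at least 8156 reads. It ranked 24 from the highest among the 12012 genes, with genes listed at 0 placed at their bounds. With listed zeros at their bounds, the 5 genes nearest to it in log2 change, out of 190 in the lists examined here and over 2 libraries, included Col3a1 at 3.89 and Col5a1 at 4.06, from the list of activated HSCs and myofibroblasts, and Bmp5 at 3.35, a quiescent HSC marker. The remaining ones, Pth1r at a lower bound of 3.42 and Pdgfrb at a lower bound of 4.07, were listed at 0 with oil, and how near they lie to Lrat is not known.

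Among the secreted proteins, Reln, the extracellular glycoprotein reelin (NM_011261, chr5:21884454-22344705), was at 4.01 RPKM with oil and 43.4 RPKM with CCl4. Its log2 change was 3.44 (interval 3.18 to 3.70), and it ranked 34 from the highest. Colec11, a collectin that recognizes sugars on microbes and starts the lectin pathway of complement (NM_027866, chr12:28594172-28623458), was at 9.36 RPKM and 89.3 RPKM, a 9.54-fold difference with a log2 change of 3.25 (interval 3.15 to 3.36). It had the largest rise of the 9 genes in RPKM, 79.9, and became the 460th most abundant gene of the CCl4 library after having been the 3901st of the oil library.

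Hgf, hepatocyte growth factor, which acts on hepatocytes through the receptor Met (NM_010427, chr5:16553495-16619439), had the smallest log2 change of the 8 genes. It was at 7.65 RPKM with oil and 24.2 RPKM with CCl4, a log2 change of 1.66 with an interval of 1.57 to 1.75. Ecm1, an extracellular matrix protein known to hold latent TGF-beta inactive in the liver (NM_001252653, chr3:95734147-95739876), was at 11.95 RPKM and 46.6 RPKM, a log2 change of 1.96 with an interval of 1.84 to 2.09. Both intervals lie below those of Lrat, Reln, Rgs5 and Colec11, so the difference in the size of the increase is larger than counting error in these libraries.

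Rgs5, a regulator of G-protein signaling found in pericytes and HSCs (NM_009063, chr1:169655501-169695813), was at 2.77 RPKM with oil and 23.3 RPKM with CCl4, an 8.41-fold difference with a log2 change of 3.07 (interval 2.90 to 3.25). Ngfr, the low-affinity neurotrophin receptor (NM_033217, chr11:95568818-95587698), was listed at 0 in the oil library and at 5.28 RPKM with CCl4. Hand2, a basic helix-loop-helix transcription factor of mesenchymal cells (NM_010402, chr8:57320983-57324517), was listed at 0 in the oil library and at 14.8 RPKM with CCl4. With the limit put in place of the listed 0, the log2 changes were at least 2.40 for Ngfr and at least 3.89 for Hand2. Hand2 ranked 16 and Ngfr 157 from the highest among all genes compared.

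**Figure D2:**
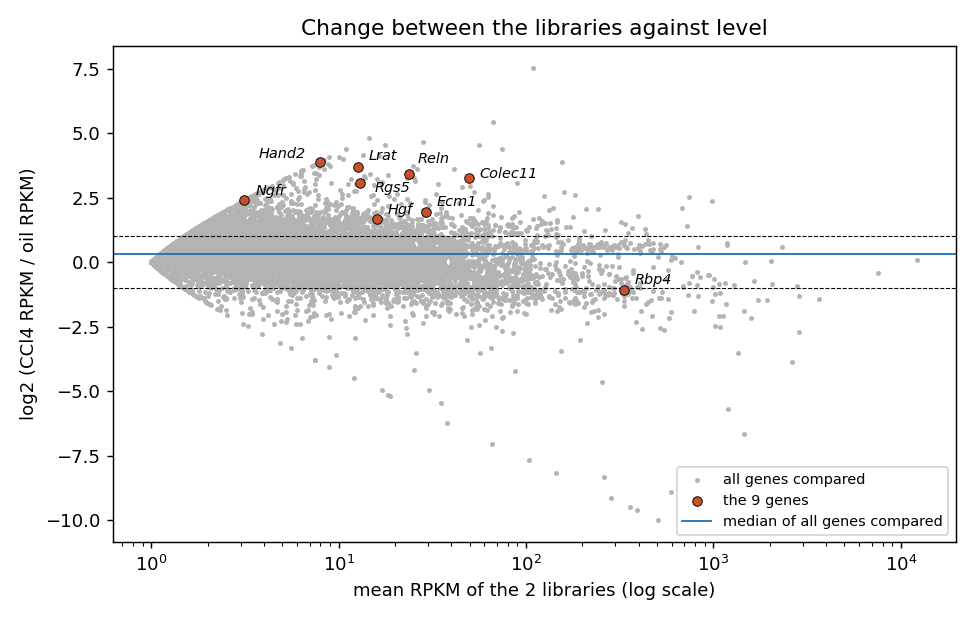
Log2 change against mean RPKM of the 2 libraries (log axis) for the 12012 genes compared (grey), with the 9 genes in orange, the median of 0.33 as a blue line and the size for a call as dashed lines. Ngfr and Hand2 lie on the upper edge, where genes listed at 0 in the oil library fall; 8 genes lie above the upper dashed line and Rbp4 just below the lower one.

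The order of the levels changed between the libraries. In the oil library it ran Rbp4, Ecm1, Colec11, Hgf, Reln, Rgs5 and Lrat, with Hand2 and Ngfr below 1 RPKM, and the counting intervals of neighbors that had reads did not overlap. In the CCl4 library Colec11 came second after Rbp4 and was followed by Ecm1, Reln, Hgf, Lrat, Rgs5, Hand2 and Ngfr. At the totals inferred here the reads are lower bounds, and the intervals are at their widest. A gap between them is then safe, whereas an overlap does not settle whether counting error separates a pair. The widest interval of Ecm1, 44.9 to 48.3 RPKM, overlapped that of Reln, 41.3 to 45.6 RPKM. Those of Hgf, Lrat and Rgs5 overlapped as well, at 23.5 to 24.9, 23.1 to 24.1 and 22.5 to 24.2 RPKM, and the order within these groups is not settled here.

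Setting the genes against Rbp4 of the same library removes the scaling of the libraries. Lrat was at 0.409% of the Rbp4 level with oil and at 10.9% with CCl4, so that Rbp4 was 244.7-fold above Lrat in the former and 9.15-fold above it in the latter. Relative to Rbp4 the log2 change of Lrat was 4.74. The corresponding values were 4.50 for Reln, 4.32 for Colec11, 4.13 for Rgs5, 3.02 for Ecm1 and 2.72 for Hgf, and lower bounds of 4.95 for Hand2 and 3.46 for Ngfr. Colec11 reached 41.4% of Rbp4 in the CCl4 library, from 2.08%. The summed level of the 8 genes was 8.35% of Rbp4 with oil and 125.4% with CCl4.

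**Figure D3:**
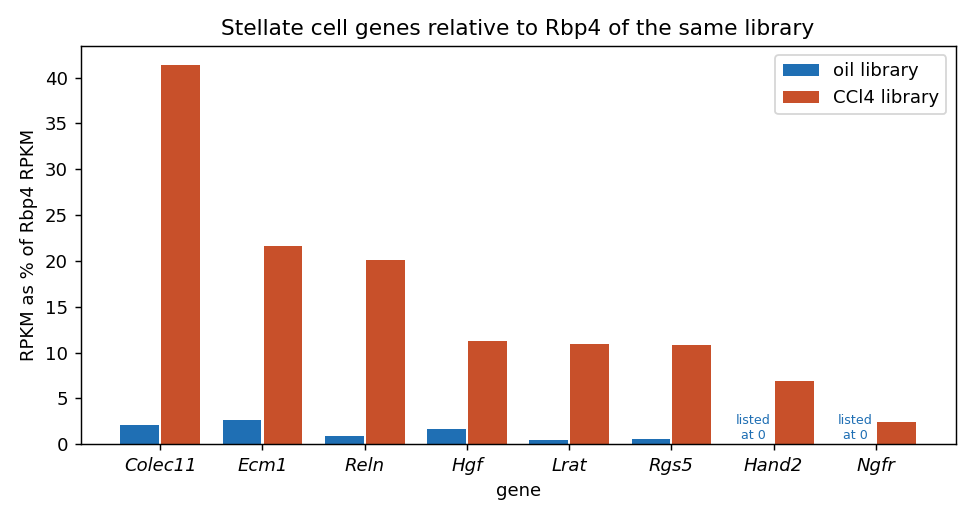
RPKM of each gene as a percentage of Rbp4 RPKM in the same library, for the oil library (blue bars) and the CCl4 library (orange bars), on an axis that starts at 0. The bar of Colec11 goes from 2.08% to 41.4% and that of Lrat from 0.409% to 10.9%; Hand2 and Ngfr were listed at 0 in the oil library.

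The other genes of the retinoid pathway were called in both directions. Of 59 genes written down for the pathway, 58 had a transcript and 46 could be compared. Of these 5 were higher (10.9%, against 16.5% of all genes) and 11 lower (23.9%, against 5.39%), with a median change of -0.11. When the libraries were scaled to their median ratio, 2 were higher and 17 lower, against 1128 and 1129 of the 12012 genes. The calls of the 9 genes stayed as they were.

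Among carriers of retinoid, Stra6l, a membrane receptor for Rbp4 in the liver, fell from 28.5 to 12.0 RPKM, a log2 change of -1.24. Stra6, the Rbp4 receptor of other tissues, was listed at 0 in both libraries, as were Rbp2, Rbp3, Rbp7, Crabp1 and Crabp2. Among enzymes that make or split neutral lipid and retinyl esters, Lpl, lipoprotein lipase, rose from 10.6 to 49.9 RPKM. The carboxylesterases Ces1d, Ces1e, Ces1f and Ces2a fell, with log2 changes from -1.78 to -1.10, and Ces1g was at 32.0 and 31.7 RPKM. The Ces1 genes are close copies of each other, and reads could be split among them. Dgat1, which can also esterify retinol, was at 8.68 and 9.53 RPKM.

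Of the dehydrogenases and other enzymes that oxidize or reduce retinoids, 22 could be compared. Of these 1 was higher (4.5%, against 16.5% of all genes) and 6 were lower (27.3%, against 5.39%). The higher one was Bco1, the carotene-cleaving oxygenase, at 1.71 and 3.64 RPKM. The call of Bco1 was lost with the median scaling, where its log2 change was 0.78. With that scaling 0 of the 22 were higher and 10 lower, against 1128 and 1129 of the 12012 genes. Rdh7 fell from 340.9 to 125.6 RPKM, and its close relative Rdh16, with which reads could be shared, from 8.04 to 3.54 RPKM. Adh4 fell from 42.3 to 15.8 RPKM, Adh5 from 136.9 to 66.8 RPKM and Aldh8a1 from 83.3 to 37.1 RPKM, and Adh7 went from 2.21 RPKM to a listed 0. Aldh1a1, which makes retinoic acid, was at 279.3 and 141 RPKM, and Adh1, the most abundant of the group, at 900.9 and 466.4 RPKM, log2 changes of -0.99 and -0.95 that did not reach a call but did so with the median scaling, at -1.29 and -1.25. Dhrs3, which turns retinal back into retinol, was at 67.2 and 106.6 RPKM. Rdh10, the retinol dehydrogenase needed for retinoic acid in the embryo, was at 6.81 and 5.32 RPKM. Aldh1a2 was listed at 0 in the oil library and at 1.95 RPKM with CCl4.

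Of the receptors and the genes of retinoic acid breakdown and response, 10 could be compared, and 2 were higher (20%, against 16.5% of all genes) and 0 lower (against 5.39%). Rarb rose from 2.16 to 4.98 RPKM and Rarg from 4.35 to 10.1 RPKM, log2 changes of 1.20 and 1.21, and neither reached a call once the median shift of 0.30 was taken off. Rxra, the most abundant receptor of the group, was at 67.7 and 59.1 RPKM. Cyp26a1, which breaks down retinoic acid, was at 9.42 and 5.74 RPKM and reached a call as lower with the median scaling, and its relative Cyp26b1 at 7.31 and 11.9 RPKM.

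Partners of the genes moved in part with them. Colec10, which forms a mixed complex with Colec11, rose from 2.23 to 21.2 RPKM, a log2 change of 3.25 equal to that of Colec11 at 2 decimals. The ratio of Colec11 to Colec10 was 4.20 with oil and 4.22 with CCl4. Of the 9 complement and collectin genes compared beside Colec11, 1 was higher (11.1%, against 16.5% of all genes), 3 were lower (33.3%, against 5.39%) and 5 were between. Masp2 fell from 85.3 to 33.7 RPKM and Mbl1 from 155.4 to 49.95 RPKM, C4b, which could share reads with its close copy C4a, fell from 207.2 to 90.7 RPKM, and Mbl2, at 90.7 and 69.6 RPKM, and C3, at 1016 and 677 RPKM, were not called. Masp1 was at 14.6 and 23.8 RPKM. For Ngfr, the ligand Ntf3 went from a listed 0 to 2.14 RPKM, a call lost with the median scaling, and Sort1, a co-receptor, rose from 2.96 to 8.72 RPKM. The receptors Ntrk2 and Ntrk3 were listed at 0 in both libraries. Markers of Schwann cells, which also carry Ngfr, were all listed at 0 in both libraries (5 of 5).

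For Reln, the receptors Vldlr and Lrp8 and the adaptor Dab1 were listed at 0 in both libraries, and the integrin chain Itgb1 was at 32.1 and 59.7 RPKM. For Hgf, the receptor Met was at 6.23 and 4.10 RPKM. Hgfac and Hpn, hepatocyte proteases that activate Hgf, were at 51.8 and 28.1 RPKM and at 100.3 and 57.5 RPKM, respectively, and both were called lower with the median scaling. The plasminogen activators, which can also cleave Hgf, were higher, with Plau at 1.61 and 6.75 RPKM and Plat at a listed 0 and 6.89 RPKM. Of 7 genes of TGF-beta and its activation that could be compared beside Ecm1, 6 were higher (85.7%, against 16.5% of all genes, and 5 with the median scaling) and 0 lower (against 5.39%). Tgfb1 rose from 6.75 to 20.2 RPKM, Tgfb3 from 1.81 to 6.63 RPKM and Thbs1, an activator of latent TGF-beta, from 3.79 to 11.7 RPKM.

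Of the 11 genes of G-protein signaling compared beside Rgs5, 4 were higher (36.4%, against 16.5% of all genes), among them Rgs10 from 4.32 to 25.5 RPKM and the G-protein subunit Gnai2 from 47.7 to 107.6 RPKM. With the median scaling 2 of the 11 were higher, and Gnai2 was not among them. Rgs4 was listed at 0 in the oil library and at 1.05 RPKM with CCl4. Of the 10 transcription factors compared beside Hand2, 7 were higher (70%, against 16.5% of all genes, and 6 with the median scaling) and 0 lower. Tcf21, which marks fibroblast lineages, went from a listed 0 to 20.8 RPKM, Tbx20 from a listed 0 to 8.44 RPKM, Lhx2, which is known to keep HSCs quiescent, from a listed 0 to 5.55 RPKM and Foxf1 from a listed 0 to 4.64 RPKM. Gata4 rose from 5.62 to 17.2 RPKM, and Twist2 and Hand1 were listed at 0 in both libraries.

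**Figure D4:**
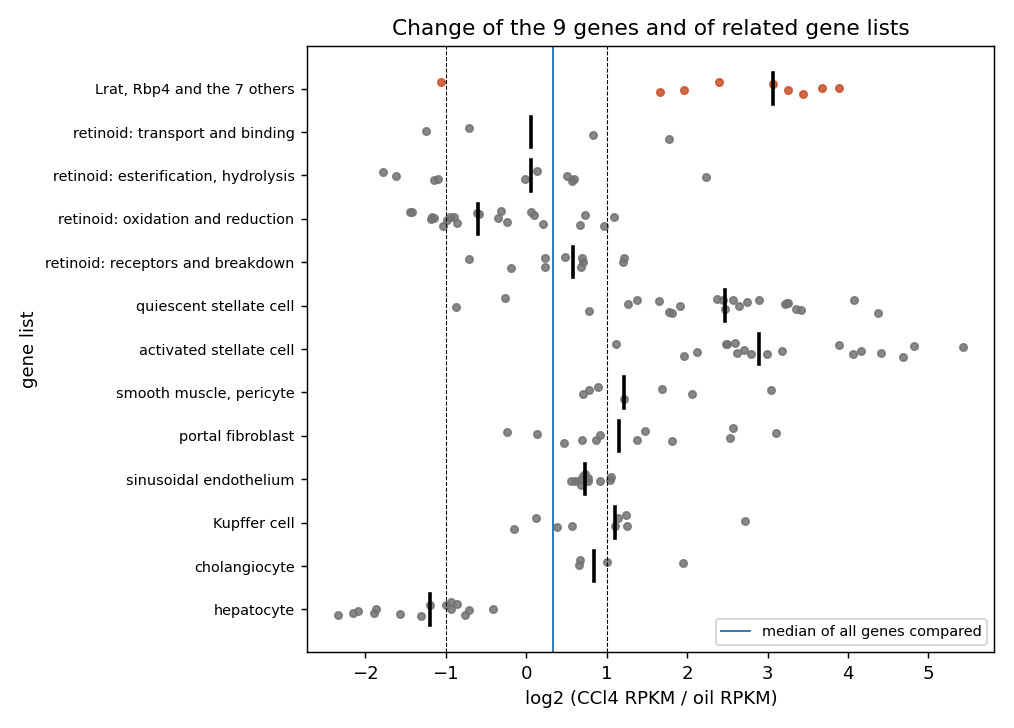
Log2 change of the 9 genes (orange) and of the compared genes of related lists (grey), each point 1 gene, with the median of each list as a black bar, the median of all genes, 0.33, as a blue line and the size for a call as dashed lines. Without Rbp4 the 9 genes lie between 1.66 and 3.89; the HSC lists have medians of 2.47 and 2.89 with listed zeros at their bounds, and Rbp4, at -1.06, lies within the range of the hepatocyte list, whose median is -1.19.

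Markers of other liver cells moved between the libraries too. Outside the 9 genes, 20 of the 23 quiescent HSC markers compared were higher (87.0%, against 16.5% of all genes, and 19 with the median scaling) and 0 lower (against 5.39%). The median change of these markers was at least 2.47 (7 were listed at 0 with oil), and their summed level went from 410.3 to 751.1 RPKM. Des, desmin, rose from 1.41 to 10.5 RPKM, Pdgfrb from a listed 0 to 16.8 RPKM and Dcn, decorin, from 36.1 to 213.9 RPKM. Gfap, also on the list, was listed at 0 in both libraries. Plin2, a lipid droplet protein that hepatocytes also make, was at 188.7 and 157.5 RPKM. Steap4 had the lowest change of the list, -0.87, at 128.8 and 70.5 RPKM, and was called lower with the median scaling. All 18 markers of activated HSCs and myofibroblasts were higher (100%, against 16.5% of all genes). Their median was at least 2.89 (3 were listed at 0 with oil), and their summed level was 168.0 and 1424 RPKM. Acta2, smooth muscle actin, rose from 1.58 to 8.92 RPKM and Col1a1, a chain of collagen I, from 3.02 to 130.5 RPKM, and the lowest change of the list was 1.11, for Timp1, which was not called with the median scaling (17 of 18 higher).

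Lists of smooth muscle and pericytes, portal fibroblasts, sinusoidal endothelium, Kupffer cells and cholangiocytes had medians between 0.73 and 1.22, with listed zeros at their bounds. The differences between lists were not tested. The median of 1.22 is itself a lower bound, that of Myh11, as 3 of the 7 smooth muscle and pericyte genes compared were listed at 0 with oil. Of the smooth muscle and pericyte markers, 4 of the 7 compared were higher (57.1%, against 16.5% of all genes, and 3 with the median scaling). The list had a median of 1.22 and a summed level of 19.5 and 61.6 RPKM. The change was at least 0.71 for Actg2 and 3.04 for Mustn1, and Cnn1 and Cspg4 were listed at 0 in both libraries. Of the portal fibroblast markers 6 of 12 were higher (50%, against 16.5% of all genes), with a median of 1.15. Their summed level was 68.1 and 157.5 RPKM, and Dpt changed by 3.11. Mfap4 was listed at 0 with oil and at 5.93 RPKM with CCl4, and Clec3b went from 1.18 RPKM to a listed 0. For the sinusoidal endothelium 2 of 11 were higher (18.2%, against 16.5% of all genes, and 0 with the median scaling), with a median of 0.73 and a summed level of 642.6 and 1096.1 RPKM, and changes ran from 0.56 for Tek to 1.05 for Lyve1. For Kupffer cells 5 of 9 were higher (55.6%, against 16.5% of all genes, and 1 with the median scaling). The median was 1.10 and the summed level 1043 and 2018 RPKM, with changes from -0.15 for Clec4f to 2.72 for Marco. For cholangiocytes 2 of 4 were higher (50%, against 16.5% of all genes, and 1 with the median scaling). The median was 0.84 and the summed level 50.9 and 170.2 RPKM, with changes from 0.66 for Krt7 to 1.95 for Spp1. The summed level of the hepatocyte markers was 28896 RPKM with oil and 15081 RPKM with CCl4. The part of these cells in the changes of the 9 genes was not tested.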

How the data were processed

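RNA-seq had been run on 1 oil and 1 CCl4 hepatocyte library. The submitters' processing notes name CASAVA 1.4, TopHat2 and mm10; the counting program, annotation version and strand setting are not given in the sources used here. The authors deposited RPKM values per transcript for mRNAs, annotated lncRNAs and new lncRNAs, and read counts with uncut RPKM values for the new lncRNAs. Further columns, in which the authors gave their own comparison (a log2 value, p-value and q-value), were not used. In the new lncRNAs, all 1354 oil and all 1347 CCl4 values below 1 RPKM were listed at 0, and every other value was kept.

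Of 27457 mRNA rows, 27049 were given a symbol through a RefSeq table of GRCm38.p6, which also gave gene spans. A gene was represented by its transcript of highest mean RPKM. No test was made, since there was 1 library per group. Library totals were those giving whole reads (within 0.05 read, or the rounding of the value where larger) in genes shorter than 400 bases with under 3000 reads, 205 of 212 for oil and 215 of 223 for CCl4. The reads of a gene are those at the shortest length giving whole reads in both libraries at these totals, hence lower bounds, which make intervals too wide. On 1397 new lncRNAs the same search equaled the deposited counts in 83.2% and exceeded them in 0. It used totals derived from those deposited counts, which differ from the totals inferred for the mRNAs. That check therefore covers the search for a length and not the inferred totals. Intervals cover counting error only, since copies from PCR are not independent molecules. The members, lists and partners were chosen with earlier results of these data known. Named genes are the 9 members, their partners, the genes with the highest and lowest change of each list, a few fixed retinoid and cell markers and the 5 list genes nearest to Lrat. Ces1d, Ces1e, Ces1g, Ces2a, Dgat1, Rdh16, Adh1, Adh4, Adh5, Adh7, Aldh8a1, Rarb, Rxra, Cyp26b1, Gfap, Plin2, Cnn1, Cspg4, Myh11, Mfap4 and genes given only as listed at 0, as well as the check of listed zeros, were chosen after values were seen. Some genes of the lists are counted but not reported by name here. Alternatives changed the pseudocount, scaling, listed zeros, transcripts, fold and filter. Python 3.11.15, numpy 2.4.6, pandas 2.3.3, scipy 1.17.1 and matplotlib 3.10.9 were used.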

Additional observations from a re-analysis of the deposited data

Results flagged for a closer look

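The table of new lncRNAs was not used in the comparisons above, and 2 of its entries lie within 10 kb of the genes described and were higher in the CCl4 library than in the oil control library. TCONS_00078477, at chr8:57312605-57313067 on the plus strand of mm10, lies 7.92 kb upstream of Hand2. It had 6 reads (0.208 RPKM) in the oil library and 54 reads (1.64 RPKM) in the CCl4 library. The ratio of its RPKM was 7.92, with a 95% exact Clopper-Pearson interval from 3.41 to 22.5, which covers counting error only. A ratio at least as large was found in 60 of the 1397 new lncRNAs with reads in both libraries, whose median ratio was 1.39. TCONS_00062997, at chr5:16623526-16624113 on the plus strand, lies 4.09 kb beyond the end of Hgf. It had 6 reads (0.163 RPKM) and 26 reads (0.623 RPKM), a ratio of 3.81 with an interval of 1.53 to 11.3, and a ratio at least as large was found in 191 of the 1397. Whether these entries are separate transcripts or extensions of the neighboring genes was not tested.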

How the results depend on the processing

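The 8 genes stayed called higher and Rbp4 lower under both other scalings, both pseudocounts, the other reading of a listed 0, no filter and with transcripts summed. With a mean of at least 5 RPKM, Ngfr dropped out and 7 were higher. At an absolute log2 change of at least 2, 6 were higher and 0 lower, without Hgf, Ecm1 and Rbp4. The change of Lrat lay from 3.11 to 3.68 and that of Rbp4 from -1.36 to -1.06. Those of Ngfr and Hand2 depend on the listed 0, and lay from 1.65 to 5.75 and from 2.99 to 7.22, the highest with the 0 taken as 0 and 0.1 RPKM added. Over all genes, 1984 higher and 647 lower became 1128 and 1129 when scaled to the median ratio (49.98% of calls higher, against 75.4%), and 292 and 100 at a log2 change of at least 2. With 1 RPKM added 1224 were higher, and 992 with a mean of at least 5 RPKM. Of the retinoid pathway genes, 5 higher and 11 lower became 2 and 17 when scaled to the median ratio, and 1 and 0 at a log2 change of at least 2. With 1 RPKM added 3 were higher, and 3 with a mean of at least 5 RPKM. A stricter size or filter lowers counts by construction; for the rest the cause was not tested. Of the 86 single-gene values under alternatives, 61 moved by less than the margin of counting error, taken at its widest, and none changed direction; for Ngfr and Hand2, which have no interval, the widest margin of the other genes was used. No paired analysis was possible because each group has 1 library. Differences between preparations and the effect of CCl4 cannot be told apart with 1 library each.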
